A study of Mus musculus with 6 samples.

Results

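The Ihh and PTHrP loop was followed through 10 genes, taken by symbol from the deposited count table: the ligand genes *Ihh* and *Pthlh*, the receptor gene *Pth1r*, the G protein gene *Gnas*, the downstream regulators *Hdac4*, *Sik3* and *Mef2c*, the transcription factor genes *Foxa2* and *Foxa3*, and *Zfp521*. All 10 were found among the 54532 genes of the table, each once, and all 10 were among the 14801 genes that passed the filter on low counts. They were read in 6 RNA-seq libraries, 3 of Gli1+ cells and 3 of Gli1- cells. All 6 came from *Gli1-CreERT2; tdTomato* mice of a C57BL/6 background, aged 1 month and taken a day after tamoxifen (TAM). A Cre driven by *Gli1* and activated by TAM switches on the red protein tdTomato in this line, so Gli1+ stands for sorted tdTomato+ cells and Gli1- for sorted tdTomato- cells. Both populations were depleted of CD45+, CD31+ and Ter119+ cells (leukocytes, endothelial cells and erythroid cells) in the sort. The labels name the tissue as growth plate, whereas the study's account of the RNA-seq names costal cartilage. The Gli1- population is whatever the reporter did not mark, and is therefore no single stage of chondrocyte. Comparisons by pair, or with the replicate number in the fit, treated both populations of a replicate number as drawn from the same mice. The study states that they shared mice, although the labels do not say how many mice a library holds. The main edgeR fit and the exact permutation tests did not pair the libraries.

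In growing cartilage, IHH made by prehypertrophic chondrocytes acts through Hedgehog signalling on neighbouring cells and raises the supply of PTHrP, the product of *Pthlh*. PTHrP binds the receptor PTH1R on dividing chondrocytes and delays their enlargement into hypertrophic cells, which in turn limits IHH. Inside the cell, PTH1R works through the stimulatory G protein subunit encoded by *Gnas* and protein kinase A (PKA), which restrains the kinase SIK3. With SIK3 restrained, HDAC4 can enter the nucleus and hold back MEF2C, a driver of hypertrophy, while FOXA2 and FOXA3 promote the hypertrophic program and ZFP521 acts as a repressor downstream of PTHrP.

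*Gli1*, itself a Hedgehog target, was read first as the check of the sort. Its level was 4.55, 6.39 and 7.98 CPM (counts scaled to the size of each library, TMM-normalized) in Gli1+ replicates 1, 2 and 3, and 0.724, 1.26 and 2.43 CPM in Gli1- replicates 1, 2 and 3. The populations did not overlap, and the log2FC (log2 of Gli1+ over Gli1-) was 2.09 ± 0.684 (SE, n = 3 per population, edgeR adjusted p = 0.9999, exact permutation p = 0.1). The libraries held 17114101 to 18602482 counts. Several libraries stood apart from the rest. Gli1+ replicate 1 had a count on 15000 genes, against 20666 to 23360 in the other 5. The 10 chondrocyte markers read here summed to 19390 and 25730 CPM in replicate 2 of Gli1+ and Gli1-, against 6154 to 8158 CPM in the other 4 libraries, so the labelled cell type had its markers in every library. Of the 10, 8 were highest in replicate 2 of both populations, with *Col2a1* the main part of the sum, while *Acan* and *Sox9* were lowest there. The fibroblast markers summed to 4005 and 9173 CPM in replicate 2 of Gli1+ and Gli1-, against 1821 to 2816 CPM in the other 4 libraries, and all 6 had a log2FC below 0 (median -1.07). The osteoblast, skeletal muscle and erythroid sums were also highest in replicate 2 of both, as were 3 of 5, 2 of 6 and 2 of 5 of their markers. In replicate 2, *Ibsp* was the main part of the osteoblast sum and *Tnnt3* of the skeletal muscle sum, while *Ttn* was lowest there. The 10 leukocyte markers summed to 3355 CPM in Gli1- replicate 1, against 41.1 to 184 CPM in the other 5. *S100a9*, *S100a8* and *Lyz2* were the main part of the sum in Gli1- replicate 1. *Cd68* was instead highest in replicate 2 of both populations and *Cd79a* in Gli1+ replicate 3, and *Cd3e* was at or near 0 in all 6.

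No loop gene passed the call used for differentially expressed genes, a |log2FC| over 1 with an adjusted p-value under 0.05 in edgeR's quasi-likelihood test. The count was 0 of 10, beside 0 of all 14801 genes tested (0.0%). The study, with the same thresholds in its own processing, did report differentially expressed genes. At an unadjusted p under 0.05 the count in edgeR was again 0 of 10, where the whole table gave 514 genes (3.47%). Leaving out any 1 of the 6 libraries also gave 0 of 10. Of the 10, 4 had a log2FC above 0 and 6 below. The median of their log2FC was -0.25, beside 0.0013 for all genes tested. Leaving the direction aside, the median size was 0.74, beside 0.40 for all genes. Among the 10 genes 1, *Sik3*, had libraries that did not overlap between populations, all 3 lower in Gli1+, which 4.45% of genes tested also showed. *Hdac4* was higher in Gli1+ in all 3 same-numbered pairs (17.6% of genes tested), and *Gnas*, *Sik3* and *Foxa3* were lower in all 3 (19.8%). When the replicate number was added to the fit as a block, edgeR called 0 of 10 (0.0% of genes tested), with *Sik3* and *Foxa3* at an unadjusted p under 0.05 (5.25% of genes tested were lower at that p). DESeq2 with the same block called 1 of the 9 members to which it gave an adjusted p (all but *Ihh*), *Foxa3*, lower in Gli1+, where 313 of 13079 genes (2.39%) were called lower and 115 (0.879%) higher. DESeq2 without the block called 0 of these 9, where it called 15 of 13208 genes lower and 15 higher (0.114% each).

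**Figure D1:**
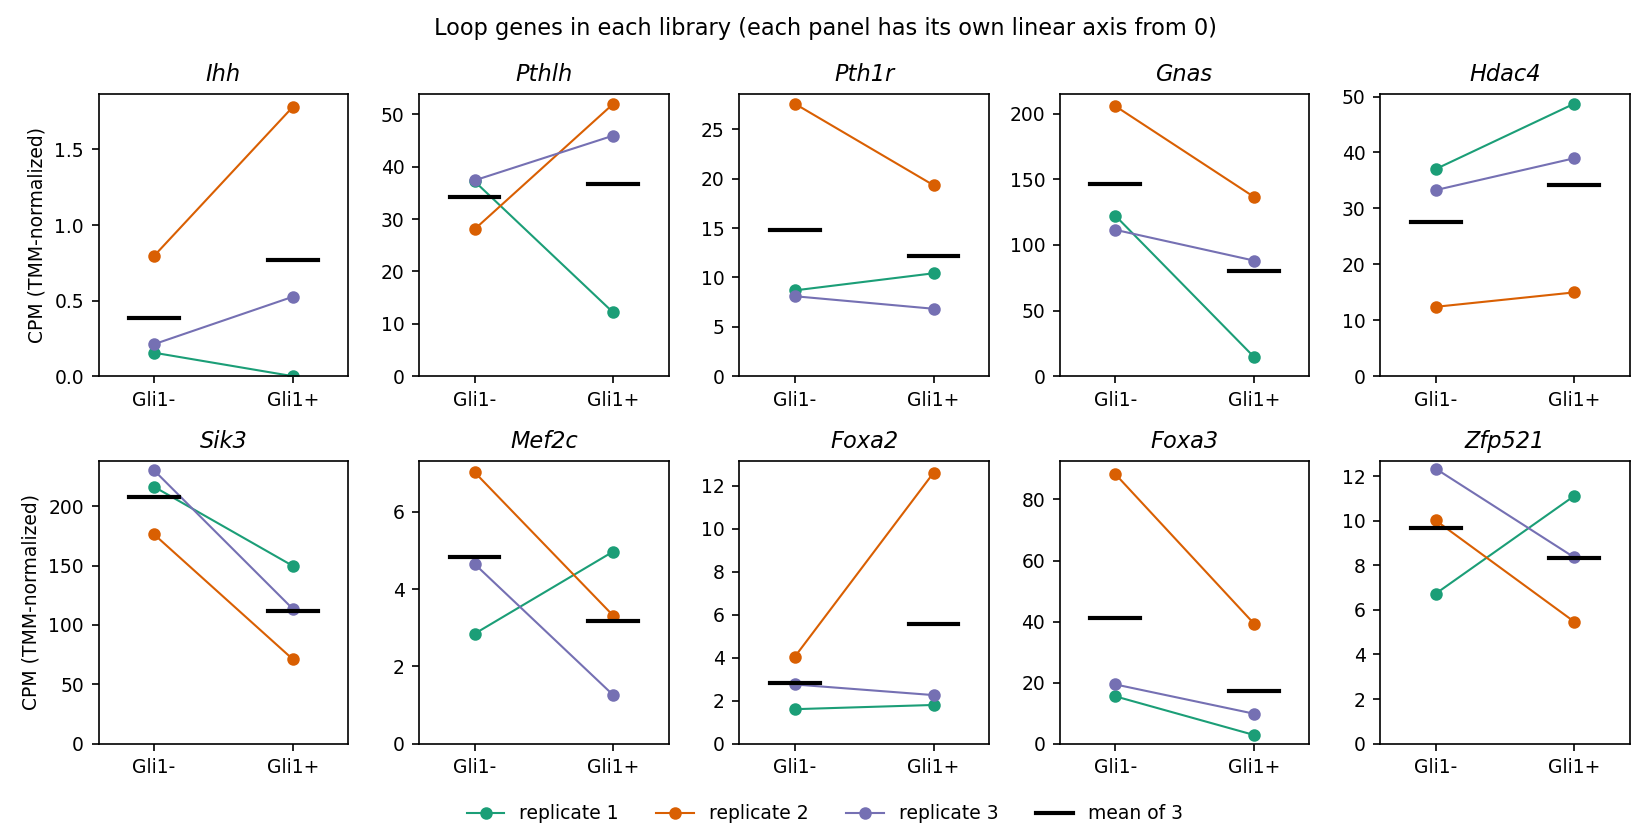
TMM-normalized CPM of the 10 loop genes in Gli1- and Gli1+ libraries, with a line joining the libraries of 1 replicate number and a black bar at the mean of 3, each panel on its own linear axis from 0. *Sik3* is the only panel of the 10 in which the Gli1+ points, 71.2 to 149.8 CPM, all lie below the Gli1- points, 176.3 to 230.2 CPM.

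**Figure D2:**
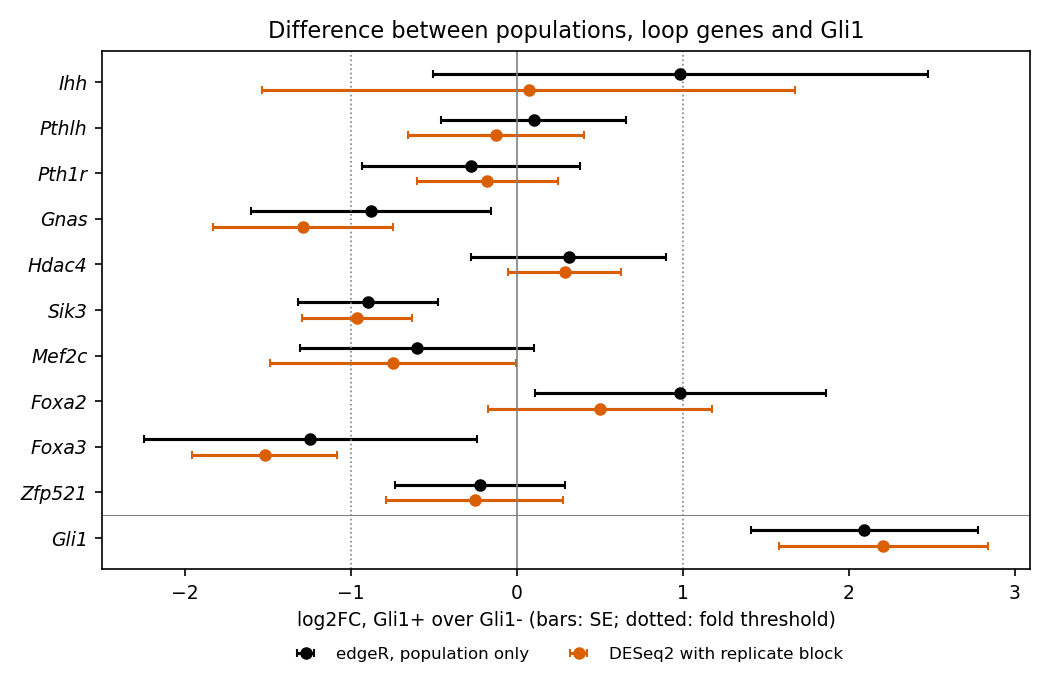
Log2FC of Gli1+ over Gli1- for the 10 loop genes and *Gli1*, with bars of 1 SE, from edgeR without a block (black) and DESeq2 with the replicate number as a block (orange), dotted lines marking the fold threshold. *Foxa3*, at -1.24 and -1.52, lies farthest below 0 in both fits, and *Ihh* has the widest bar in both.

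Neither ligand gene differed between populations by more than the spread of the libraries. *Ihh* (ENSMUSG00000006538, chr1:74945315-74951672, minus strand, mm10) was close to the limit of detection. It had 0, 29 and 10 counts in Gli1+ replicates 1, 2 and 3, and 3, 12 and 4 counts in Gli1- replicates 1, 2 and 3. Replicate 2 was the highest of both populations, and the library counts of the populations overlapped. Replicate 1 of both lay at or under 3 counts, the limit that a count of 0 allows (0.154 to 0.199 CPM, counting error only). The mean was 0.769 ± 0.915 CPM in Gli1+ and 0.388 ± 0.355 CPM in Gli1- (SD, n = 3 each), and the log2FC was 0.99 ± 1.49 (SE, edgeR adjusted p = 0.9999, exact permutation p = 1). Without Gli1+ replicate 2 this turned to -0.54, and limma-voom gave -0.16, so no direction was detectable at this depth. In bulk RNA, fewer cells that make a transcript and less of it per cell cannot be told apart.

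*Pthlh* (ENSMUSG00000048776, chr6:147252101-147264183, minus strand), which encodes PTHrP, was well covered in all 6 libraries. It stood at 12.2, 52.0 and 46.0 CPM in Gli1+ replicates 1, 2 and 3, and at 37.2, 28.1 and 37.4 CPM in the Gli1- libraries in the same order. The Gli1- libraries were close to each other, while in Gli1+ replicate 1 was far below the other two, and the populations overlapped. The means were 36.7 ± 21.5 and 34.2 ± 5.35 CPM (SD, n = 3 each), with a log2FC of 0.10 ± 0.556 (SE, edgeR adjusted p = 0.9999, exact permutation p = 1). Gli1+ replicate 1 is the library with the fewest genes detected, and without it the log2FC was 0.49. Without Gli1+ replicate 2 it was -0.24, and with the replicate block -0.11. *Pthlh* was lower in Gli1+ in pair 1 and higher in pairs 2 and 3.

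The genes whose log2 CPM followed the ligands most closely over the 6 libraries were listed as a description. For *Ihh* they were *Rpl17-ps10* (r = 0.9963), *Smox* (r = 0.9958) and *Gm13577* (r = 0.9958), and 895 genes had an r over 0.9. For *Pthlh* they were *H2-DMa* (r = 0.9992), *Lsm7* (r = 0.989) and *Slc12a8* (r = 0.9889), and 489 genes had an r over 0.9. The 6 points of each include 3 same-numbered pairs, and *Ihh* rests on few counts.

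*Pth1r* (ENSMUSG00000032492, chr9:110722085-110747145, minus strand), the receptor of PTHrP, varied with the replicate number far more than with the population. It stood at 10.4, 19.3 and 6.83 CPM in Gli1+ replicates 1, 2 and 3, and at 8.69, 27.6 and 8.09 CPM in the Gli1- libraries in the same order. Replicate 2 was the highest in both populations, and the other 4 libraries lay close together whatever their population. Replicate number accounted for 93.8% of the sum of squares of log2 CPM and population for 1.30%. The means were 12.2 ± 6.44 and 14.8 ± 11.1 CPM (SD, n = 3 each), with a log2FC of -0.28 ± 0.655 (SE, edgeR adjusted p = 0.9999, exact permutation p = 0.8). Without Gli1- replicate 2 it turned to 0.51. The chondrocyte and fibroblast marker sums were also highest in replicate 2 of both populations, and their part in the level of *Pth1r* was not tested. *Cthrc1* (r = 0.9989), *Lrrn4cl* (r = 0.9978) and *Kiz* (r = 0.9978) were the genes most like *Pth1r* over the 6 libraries, among 520 with an r over 0.9.

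Ligand and receptor were then set against each other per length. Counts per kb of *Pthlh* were 2.11, 4.86 and 12.2 times those of *Pth1r* in Gli1+ replicates 1, 2 and 3. The ratio was 7.74, 1.84 and 8.35 in Gli1- replicates 1, 2 and 3. The transcript of the ligand exceeded that of its receptor in all 6 libraries, and the ratio overlapped between populations. *Myl3* lies across *Pth1r* on the opposite strand and held 9 counts over all 6 libraries, 0.653% of the 1379 of *Pth1r*, and the library preparation described in the labels gives no step that marks strand.

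*Gnas* (ENSMUSG00000027523, chr2:174284320-174346744, plus strand), which encodes the stimulatory G protein subunit that couples PTH1R to adenylyl cyclase, had lower values in Gli1+ in all 3 pairs. It stood at 14.7, 136.6 and 88.1 CPM in Gli1+ replicates 1, 2 and 3. In Gli1- replicates 1, 2 and 3 it stood at 122.3, 205.8 and 111.5 CPM. Gli1+ replicate 1 was far below every other library, and Gli1+ replicate 2 lay within the Gli1- range. The log2FC was -0.88 ± 0.722 (SE, n = 3 per population, edgeR adjusted p = 0.9999, exact permutation p = 0.3). It was -0.40 without Gli1+ replicate 1, the library with few genes detected, -0.57 with Gli1- replicate 2 left out, and -1.52 without Gli1+ replicate 2. With the replicate number as a block it was -1.27 in edgeR (adjusted p = 0.641) and -1.29 in DESeq2 (adjusted p = 0.231). In the annotation 5 genes overlap *Gnas*, among them the antisense *Nespas*, and together they held 0.876% of its counts. *Gnas* is an imprinted locus with several start sites, whose transcripts the table sums into 1 row.

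The rest of the arm from the receptor to PKA held no gene that differed beyond the spread in edgeR. Of 26 listed genes, 24 were tested, 0 were called (edgeR), and 0 reached an unadjusted p under 0.05. DESeq2 with the block called 1, lower. In edgeR 8 were above 0 and 16 below, with a median log2FC of -0.18 beside 0.0013 for all genes. The most abundant were *Gnb1*, a G protein beta subunit, and *Prkar1a*, the regulatory subunit of PKA, at log2FC values of -0.03 and -0.03. *Pde4b*, a phosphodiesterase that breaks down cyclic AMP, stood at 139.9, 294.4 and 124.3 CPM in Gli1+ replicates 1, 2 and 3. In Gli1- replicates 1, 2 and 3 it stood at 260.9, 585.6 and 395.0 CPM, higher than its Gli1+ partner each time, although the populations overlapped. Its log2FC was -1.15 (edgeR adjusted p = 0.9999), and -1.20 with the block in DESeq2 (adjusted p = 0.0164).

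*Sik3* (ENSMUSG00000034135, chr9:46012820-46224194, plus strand), the kinase that PKA restrains in this pathway, showed the clearest separation of the 10 genes. It stood at 149.8, 71.2 and 113.6 CPM in Gli1+ replicates 1, 2 and 3, and at 216.4, 176.3 and 230.2 CPM in the Gli1- libraries in the same order. Every Gli1+ library lay below every Gli1- library, and replicate 2 was the lowest of each population. The means were 111.5 ± 39.4 and 207.6 ± 27.98 CPM (SD, n = 3 each), 1.86-fold lower in Gli1+ by the fit, with a log2FC of -0.90 ± 0.422 (SE, edgeR adjusted p = 0.9999, exact permutation p = 0.1). A 2-sided exact permutation test of 3 against 3 libraries cannot give a p below 0.1. Population accounted for 67.0% of the sum of squares of log2 CPM of *Sik3*, against a median of 10.8% over all genes tested. The log2FC lay between -1.19 and -0.67 when each of the 6 libraries was left out, and was -0.87 without Gli1- replicate 1, the library with leukocyte transcripts. With the block, the adjusted p was 0.467 in edgeR and 0.0856 in DESeq2. Without replicate 1 in both populations, DESeq2 with the block called it on the 2 pairs left (log2FC -1.17, adjusted p = 1.41e-05). That setting, chosen after seeing the data, called 502 genes lower and 279 higher, against 313 and 115 with all 3 pairs. DESeq2 with the block did not call *Sik3* without replicate 2 (log2FC -0.79, adjusted p = 0.766) or without replicate 3 (log2FC -0.91, adjusted p = 0.659).

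The upstream sequences of *Sik3* and *Hdac4* are shown because these 2 members, the kinase and its substrate, were the ones found to hold the cyclic AMP response half-site TGACG more than once in a window. *Zfp521* was not searched. The RefSeq table (GRCm38.p6) gave 18 start sites for the other 9 members. The 250 bases before each start were searched on both strands for TGACG, the GLI site GACCACCCA, the FOX core TGTTTAC and the MEF2 consensus. Capitals mark TGACG, which in both windows stood on the strand of the gene and overlapped no other searched motif. The *Hdac4* start of RefSeq lies inside the gene's span in the count table, so it is not the outermost start there.
*Sik3*, chr9:46012570-46012819, plus strand: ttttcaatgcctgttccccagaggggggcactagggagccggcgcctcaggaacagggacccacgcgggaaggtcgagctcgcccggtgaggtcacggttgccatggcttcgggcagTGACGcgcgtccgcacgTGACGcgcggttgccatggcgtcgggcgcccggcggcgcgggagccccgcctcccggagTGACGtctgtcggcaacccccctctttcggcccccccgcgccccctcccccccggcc
*Hdac4*, chr1:92180342-92180591, minus strand: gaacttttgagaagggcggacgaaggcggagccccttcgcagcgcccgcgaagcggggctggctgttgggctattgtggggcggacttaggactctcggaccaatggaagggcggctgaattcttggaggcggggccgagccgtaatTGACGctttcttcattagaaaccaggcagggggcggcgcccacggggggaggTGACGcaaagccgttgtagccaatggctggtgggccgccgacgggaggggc
*Sik3* held 3 matches, which 0.688% of the 32851 windows of this length also reached or exceeded, and *Hdac4* held 2, reached by 3.90%. These rates are per window and do not allow for the choice of these windows, by their matches, from the 18 searched. At least 1 match stood in 17.8% of windows, among them that of *Ihh*, 1 of 3 of *Pth1r* and 3 of 4 of *Gnas*. Of these *Gnas* windows, 2 overlap and hold the same match. No window of the 9 members held the GLI or FOX letters, which 0.225% and 3.17% of all windows held, and 1 window, at 1 of 3 starts of *Pth1r*, held the MEF2 consensus (2.92% of all windows). A match of letters is a description of the window and is not a measured binding site.

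Within the SIK family, *Sik3* was the main transcript per length in 5 of 6 libraries, the exception being Gli1+ replicate 2, where *Sik1* held 50.2%. Its share of the family's counts per kb was 57.0%, 40.7% and 56.3% in Gli1+ replicates 1, 2 and 3. The share was 61.4%, 55.5% and 60.3% in Gli1- replicates 1, 2 and 3. The Gli1+ value was lower in all 3 pairs, yet the populations overlapped (mean 51.4% ± 9.21 against 59.1% ± 3.14, SD, n = 3 each, exact permutation p = 0.3). *Sik1*, which is also a SIK kinase and a cyclic AMP responsive gene, stood at 33.8 to 42.4 CPM in Gli1+ and 55.3 to 59.8 CPM in Gli1-. These ranges did not overlap, with a log2FC of -0.60 (edgeR adjusted p = 0.9999). *Sik1* and *Sik3* were the members of the family with lower values in Gli1+ in all 3 pairs. The share of *Sik2* was higher in Gli1+ in all 3, but its level was not. In CPM, *Sik2* was higher in Gli1+ in 1 pair and lower in 2 (log2FC -0.04, edgeR adjusted p = 0.9999).

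*Hdac4* (ENSMUSG00000026313, chr1:91928779-92195699, minus strand), the class IIa histone deacetylase that SIK3 keeps in the cytoplasm, was slightly higher in Gli1+ in each pair. It stood at 48.7, 15.0 and 39.0 CPM in Gli1+ replicates 1, 2 and 3, and at 37.0, 12.4 and 33.3 CPM in the Gli1- libraries in the same order. Replicate 2 was the lowest of both populations by a wide margin, and the populations overlapped. The log2FC was 0.31 ± 0.588 (SE, n = 3 per population, edgeR adjusted p = 0.9999, exact permutation p = 0.5), and it turned to -0.06 without Gli1+ replicate 1 and to -0.08 without Gli1- replicate 2. Replicate number accounted for 95.7% of its sum of squares, the highest of the 10 genes, and population for 4.09%.

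Of the class IIa family, *Hdac5* held the largest share in all 6 libraries. Per kb, *Hdac4* made up 34.2%, 6.43% and 22.3% of the family in Gli1+ replicates 1, 2 and 3. Its share was 12.3%, 3.82% and 9.56% in Gli1- replicates 1, 2 and 3. The share was higher in Gli1+ in 3 of 3 pairs, by 12.4 percentage points on average (exact permutation p = 0.3, 0.4 adjusted over 4 family shares). *Hdac5* stood at 31.8, 95.7 and 47.6 CPM in Gli1+ and at 100.9, 142.2 and 117.0 CPM in Gli1-, with no overlap. Its log2FC was -1.04 (edgeR adjusted p = 0.9999), and -1.19 in DESeq2 with the block (adjusted p = 0.0404). Without Gli1+ replicate 2 the edgeR value was -1.61.

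*Mef2c* (ENSMUSG00000005583, chr13:83504034-83667080, plus strand), the transcription factor on which HDAC4 acts in hypertrophy, was low in both populations. It stood at 4.97, 3.32 and 1.26 CPM in Gli1+ replicates 1, 2 and 3. In Gli1- replicates 1, 2 and 3 it stood at 2.84, 7.03 and 4.66 CPM. The populations overlapped and the pairs did not share a direction, since pair 1 was higher in Gli1+ and pairs 2 and 3 were lower. The log2FC was -0.60 ± 0.706 (SE, n = 3 per population, edgeR adjusted p = 0.9999, exact permutation p = 0.5). It ranged from -1.10 without Gli1+ replicate 1 to -0.23 without Gli1+ replicate 3, and was -0.27 without Gli1- replicate 2. *Mef2c* made up only 0.199% to 1.08% of the MEF2 family per kb in Gli1+ and 0.403% to 1.4% in Gli1- (mean 0.701% ± 0.454 against 0.770% ± 0.549, SD, exact permutation p = 0.9). *Mef2d* and *Mef2a* made up the bulk of the family in all 6 libraries. *Mef2d* had lower values in Gli1+ in all 3 pairs (log2FC -0.69, edgeR adjusted p = 0.9999).

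**Figure D3:**
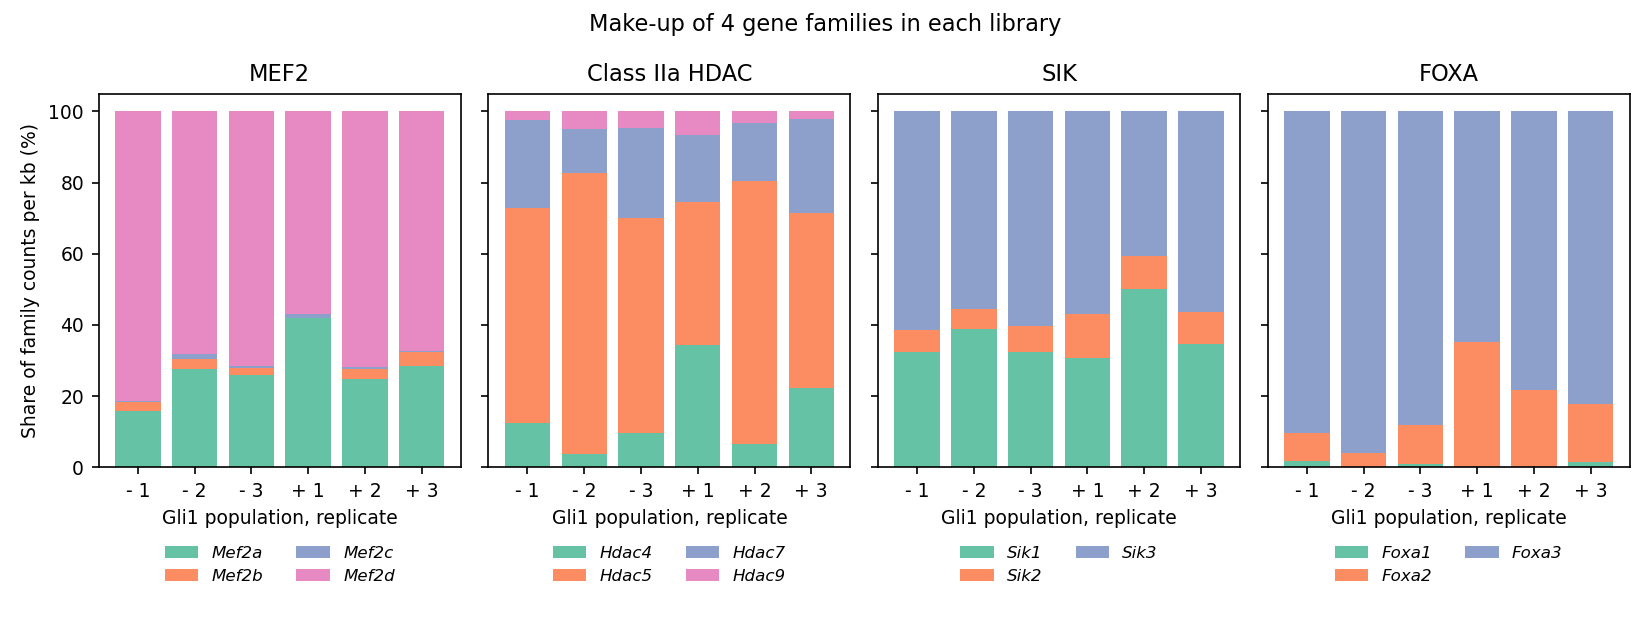
Share in percent of each gene in the summed counts per kb of the MEF2, class IIa HDAC, SIK and FOXA families, for Gli1- and Gli1+ replicates 1 to 3. *Mef2d* and *Mef2a* fill nearly all of the MEF2 bars, and the *Foxa2* segment is taller in each Gli1+ library (16.2% to 35.1%) than in any Gli1- library (3.78% to 10.7%).

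The wider list of HDAC, SIK and MEF2 relatives held 20 genes, all tested, of which 4 were above 0 and 16 below. EdgeR called 0, and 0 reached an unadjusted p under 0.05 in edgeR. Of them 3 had libraries that did not overlap, all lower in Gli1+ (*Hdac5*, *Sik1* and *Crtc2*, the last named after its values were seen), and 9 were lower in all 3 pairs. Their median log2FC was -0.37, beside 0.0013 for all genes tested. DESeq2 with the block called 1 of the 20, *Hdac5*. Beside the background of 4.45% without overlap and 19.8% lower in all pairs, these counts are a description and were not tested as a list.

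*Foxa3* (ENSMUSG00000040891, chr7:19013284-19023538, minus strand), a forkhead factor of the hypertrophic program, had the largest fold difference of the 10 genes. It stood at 2.86, 39.4 and 9.82 CPM in Gli1+ replicates 1, 2 and 3, and at 15.5, 88.3 and 19.4 CPM in the Gli1- libraries in the same order. Replicate 2 was the highest of both populations, and within each pair the Gli1+ library was the lower one, by 2.40, 1.16 and 0.98 on the log2 scale. Because replicate 2 of Gli1+ lay above replicates 1 and 3 of Gli1-, the populations overlapped. The log2FC was -1.24 ± 1.00 (SE, n = 3 per population, edgeR adjusted p = 0.9999, exact permutation p = 0.4). Leaving out a single replicate 2 library moved it widely, to -0.03 without that of Gli1- and to -2.70 without that of Gli1+.

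With the replicate number as a block, the standard error of *Foxa3* was smaller. Its log2FC was -1.51 in edgeR (adjusted p = 0.424). In DESeq2 it was -1.52 ± 0.439 (SE, adjusted p = 0.0224), 2.87-fold lower in Gli1+. In settings chosen after seeing the data, DESeq2 with the block called *Foxa3* without replicate 1 in both populations (log2FC -1.09, adjusted p = 0.00119). There it called 502 genes lower and 279 higher, against 313 and 115 with all 3 pairs. Without replicate 2 in both, *Foxa3* was not called (log2FC -1.72, adjusted p = 0.386), nor without replicate 3 (log2FC -1.78, adjusted p = 0.221). The upstream window of *Foxa3*, the member called with the block, is printed for reference, with none of the searched letters in it.
*Foxa3*, chr7:19023540-19023789, minus strand: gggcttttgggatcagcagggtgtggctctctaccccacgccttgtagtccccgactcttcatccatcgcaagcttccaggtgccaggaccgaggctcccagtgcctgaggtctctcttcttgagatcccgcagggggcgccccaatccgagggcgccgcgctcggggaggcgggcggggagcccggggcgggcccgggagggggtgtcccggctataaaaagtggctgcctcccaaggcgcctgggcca

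*Foxa2* (ENSMUSG00000037025, chr2:148042877-148046969, minus strand), the partner of *Foxa3* in this role, went the other way in its values but rested on 1 library. It stood at 1.80, 12.6 and 2.26 CPM in Gli1+ replicates 1, 2 and 3, and at 1.60, 4.05 and 2.75 CPM in the Gli1- libraries in the same order. Gli1+ replicate 2 was far above the other 5 libraries, among which the populations were mixed. The log2FC was 0.99 ± 0.877 (SE, n = 3 per population, edgeR adjusted p = 0.9999, exact permutation p = 0.8), and -0.47 without Gli1+ replicate 2.

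Within the FOXA family, the share of *Foxa2* was higher in every Gli1+ library than in any Gli1- library. *Foxa2* made up 35.1%, 21.5% and 16.2% of the family's counts per kb in Gli1+ replicates 1, 2 and 3. Its share was 8.02%, 3.78% and 10.7% in Gli1- replicates 1, 2 and 3. The means were 24.3% ± 9.74 and 7.52% ± 3.51 (SD, n = 3 each, exact permutation p = 0.1, the smallest possible, and 0.4 adjusted over 4 family shares). The same counts put *Foxa3* at 1.85 to 5.06 times *Foxa2* per kb in Gli1+, and at 8.21 to 25.4 times in Gli1-. The family total was lowest, at 88 counts, in Gli1+ replicate 1 (34 of *Foxa2* and 54 of *Foxa3*). That library had the highest share of *Foxa2* and the fewest genes detected, and its shares carry more counting error. In CPM, *Foxa2* was higher in Gli1+ in 2 pairs and lower in pair 3, whereas *Foxa3* was lower in all 3. *Foxa1*, the remaining member, stood at 0 to 0.465 CPM and did not pass the filter.

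*Zfp521*, a zinc finger repressor that acts below PTHrP on RUNX2, did not differ beyond the spread of the libraries. It stood at 11.1, 5.47 and 8.35 CPM in Gli1+ replicates 1, 2 and 3. In Gli1- replicates 1, 2 and 3 it stood at 6.72, 10.01 and 12.33 CPM. The populations overlapped, and the log2FC was -0.22 ± 0.514 (SE, n = 3 per population, edgeR adjusted p = 0.9999, exact permutation p = 0.6). Its spread was the smallest of the 9 members with a count in every library, with the highest library 2.26 times the lowest, where *Foxa3* spanned 30.9 times.

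Across the loop, replicate number held a larger median share of the spread than population. The median share of the sum of squares of log2 CPM was 58.2% for replicate number and 7.45% for population over the 10 genes, beside 61.3% and 10.8% over all genes tested. Replicate number has 3 levels and population 2, so its share tends to be larger even without an effect. *Sik3* went the other way (25.4% and 67.0%). Replicate 2 was the highest library of both populations for 5 of 10 genes, *Ihh*, *Pth1r*, *Gnas*, *Foxa2* and *Foxa3*, as for 31.7% of genes tested. It was the lowest of both for 2, *Hdac4* and *Sik3*, as for 27.4% of genes tested. *Hdac4* ran opposite to *Foxa3* over the 6 libraries (r = -0.921) and to *Pth1r* (r = -0.906), while *Gnas* ran with *Foxa3* (r = 0.909). These 6 points include 3 same-numbered pairs, and the chondrocyte, fibroblast, osteoblast, skeletal muscle and erythroid marker sums were highest in replicate 2 as well. Their part in these levels was not tested.

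**Figure D4:**
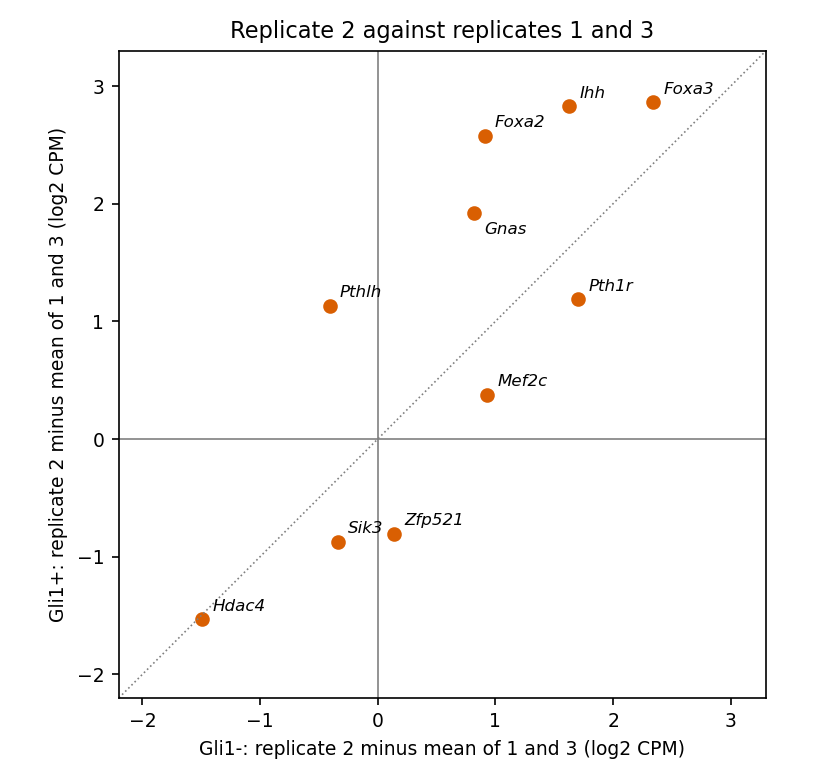
Log2 CPM of replicate 2 minus the mean of replicates 1 and 3 for each loop gene, in Gli1- (x axis) and Gli1+ (y axis), with a dotted line of equality. *Foxa3* (2.34 and 2.86) and *Ihh* (1.63 and 2.83) lie farthest to the upper right, *Hdac4* (-1.49 and -1.53) to the lower left, and *Pthlh* and *Zfp521* have opposite signs in the 2 populations.

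Per kb of annotated gene length, the same 5 genes had the highest mean CPM in both populations. The order rests on these lengths, which ran from 1619 bases for *Pthlh* to 15813 for *Hdac4*. The length was 11186 for *Gnas*, whose row sums several transcripts. A transcript shorter than the annotated length is set too low on this scale, so the order is no measure of transcript numbers. In Gli1+ the highest mean was that of *Pthlh* (22.7 ± 13.3 CPM per kb), followed by *Sik3* (11.97 ± 4.22), *Foxa3* (8.52 ± 9.52), *Gnas* (7.13 ± 5.49) and *Pth1r* (4.17 ± 2.20, all SD, n = 3). In Gli1- it was that of *Sik3* (22.3 ± 3.003 CPM per kb), followed by *Pthlh* (21.1 ± 3.304), *Foxa3* (20.2 ± 20.1), *Gnas* (13.1 ± 4.61) and *Pth1r* (5.06 ± 3.79). *Ihh* and *Mef2c* were the lowest pair in both, between 0.127 and 0.308 CPM per kb. Neighbours in this order overlapped, except for *Zfp521* over *Ihh* in Gli1+, and *Gnas* over *Pth1r*, *Pth1r* over *Hdac4* and *Foxa2* over *Mef2c* in Gli1-.

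Genes that receive and report the Hedgehog signal were read beside *Ihh*. Of 15 listed genes, 14 were tested and 0 called (edgeR), with 6 above 0 and 8 below. With *Gli1*, 3 of the 14 reached an unadjusted p under 0.05, beside 3.47% of all genes tested, and the list was not tested against the rest. *Hhip*, a Hedgehog target that binds and restrains the ligands, had a log2FC of 3.06 ± 0.816 (SE, edgeR adjusted p = 0.9999), with libraries that did not overlap, as in 4.04% of genes tested in that direction. *Boc*, a co-receptor, stood at 29.4 to 52.0 CPM in Gli1+ and 59.9 to 98.8 CPM in Gli1-, with a log2FC of -0.98 ± 0.425 (SE, edgeR adjusted p = 0.9999). DESeq2 with the block called *Gli1*, *Hhip* and *Boc* (adjusted p = 0.0189, 0.00787 and 0.0466), beside 0.879% of genes called higher and 2.39% called lower in that fit.

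The hypertrophic genes that the loop holds back had values in both directions. Of 13 listed, 12 were tested and 0 called (edgeR), with 7 above 0 and 5 below and a median log2FC of 0.52 (0.0013 for all genes tested). DESeq2 with the block called 2 higher and 1 lower (0.879% and 2.39% of genes in that fit). Libraries did not overlap for 3 genes higher in Gli1+ and 1 lower (4.04% and 4.45% of genes tested). In all 3 pairs 6 were higher and 3 lower (17.6% and 19.8%), and the list was not tested against the rest. *Mmp13*, a collagenase of late hypertrophic cartilage, stood at 2861 to 5328 CPM in Gli1+ and 456.8 to 607.1 CPM in Gli1-. Its log2FC was 2.98 ± 0.540 (SE, edgeR adjusted p = 0.9999), and DESeq2 called it with and without the block. *Col10a1*, the collagen that defines hypertrophic chondrocytes, was named after its values were seen. It stood at 34.6, 284.9 and 72.0 CPM in Gli1+ replicates 1, 2 and 3, and at 161.3, 1781 and 210.0 CPM in Gli1- replicates 1, 2 and 3. Its log2FC was -2.46 ± 1.13 (SE, edgeR adjusted p = 0.9999), and -2.15 in DESeq2 with the block (adjusted p = 6.28e-07), while DESeq2 without the block gave it no p. Leaving out replicate 2 of Gli1- took the edgeR value to -0.53, and leaving out that of Gli1+ took it to -3.76. Like *Foxa3*, *Col10a1* was highest in replicate 2 of both populations (31.7% of genes tested) and lower in Gli1+ in each pair (19.8%). The 6 genes of the list that were higher in Gli1+ in all pairs, *Mmp13* among them, went the other way. A link of *Foxa3* with any gene of the list was not tested.

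**Figure D5:**
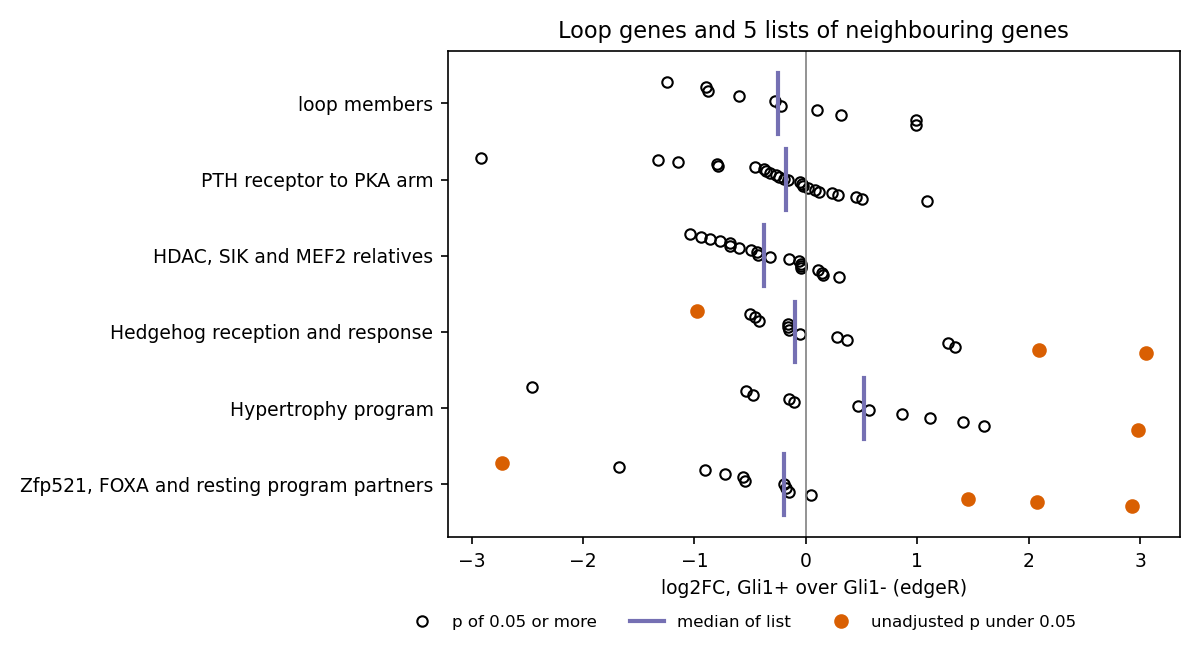
Log2FC of Gli1+ over Gli1- in edgeR for the 10 loop genes and for each tested gene of 5 lists of neighbouring genes, with filled points at an unadjusted p under 0.05 and a bar at the median of each list. The loop genes, from -1.24 to 0.99, hold no filled point, whereas the Hedgehog list holds 3, the hypertrophy list 1 and the list of partners 4.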

How the data were processed

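Total RNA of sorted cells was sequenced after poly-A selection, and the authors deposited 1 table of raw counts per gene for the 6 libraries, without normalization or pooling. The submitters' processing notes name HISAT2 2.0.5, featureCounts 1.5.0-p3 and mm10; strand use in counting is not given in the sources used here. Of 54532 genes, 54409 were found in GENCODE M21, and 98.3% of those had the same coordinates. Counts were filtered with filterByExpr (minimum count of 10), scaled by TMM and fitted with the quasi-likelihood method of edgeR 4.0.16 (R 4.3.3), and P-values were Benjamini-Hochberg adjusted across the 14801 genes that remained. Calls needed a |log2FC| over 1 and an adjusted p under 0.05. DESeq2 1.42.0, limma-voom 3.58.1, other scalings and filters, the replicate block, and leaving out libraries were alternatives. The scripts were tested on simulated counts with less spread than these libraries and no replicate effect. That test therefore does not show what the fits can recover here.

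The members and lists were chosen with earlier results of these data known. Text names all 10 members, their families, *Gli1*, the 3 genes most like *Ihh*, *Pthlh* and *Pth1r*, and of each list up to 4 of the most abundant genes or any with an unadjusted p under 0.05. Other genes are said to have been named after their values were seen. The study took both populations from shared mice, and deviations of same-numbered libraries from the population means correlated over genes (r = 0.2227, 0.7197 and 0.471 for replicates 1, 2 and 3), so libraries were paired by number in the block, although Gli1+ replicate 1 correlated slightly more with Gli1- replicate 3 (r = 0.2745). P-values cover the spread between these libraries, and floors of 3 counts cover counting error only. Family shares are of counts per kb of annotated length, tested by exact 2-sided permutation over libraries, whose smallest p is 0.1. Totals of 17114101 to 18602482 counts give 1 count a worth of 0.0514 to 0.0662 CPM.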

Additional observations from a re-analysis of the deposited data

How the results depend on the processing

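Over all genes the count of calls was 0 in edgeR, but 267 without a filter on low counts, 30 in DESeq2, and 428 in DESeq2 with the replicate block; the last gave 781, 174 and 71 without replicate 1, 2 or 3 in both populations, settings chosen after seeing the data. The count of called loop genes was 0 except for 1 (*Foxa3*) in DESeq2 with the replicate block and 2 (*Foxa3* and *Sik3*) in that fit without replicate 1. The block changed no other call of a loop gene, and the cause was not tested. Leaving out 1 library at a time gave 0 calls each time. Family share differences (Gli1+ minus Gli1-, percentage points) then lay between -0.26 and 0.25 for *Mef2c*, 5.80 and 19.7 for *Hdac4*, -10.5 and -2.39 for *Sik3*, and 11.4 and 20.8 for *Foxa2*. Exact sign-flip tests within pairs (replicate block) gave p = 0.25 (2-sided) for *Foxa2*, *Hdac4* and *Sik3*, the smallest 3 pairs allow, and p = 1 for *Mef2c*.

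Log2FC values changed sign for *Ihh* (limma-voom -0.16; -1.26 in DESeq2 with the block without replicate 3 in both) and *Pthlh* (limma-voom -0.15, edgeR block -0.11, DESeq2 block -0.13; without replicate 2 or 3 in both, edgeR -0.39 and -0.019, DESeq2 block -0.67 and -0.35). Without replicate 2 in both, *Pth1r* (0.0031, edgeR), *Foxa2* (-0.13, edgeR, and -0.076, DESeq2 block) and *Zfp521* (0.0033, edgeR, and 0.065, DESeq2 block) did too. With 1 library left out, log2FC values ran from -0.54 to 2.01 for *Ihh*, -0.24 to 0.49 for *Pthlh*, -0.79 to 0.51 for *Pth1r*, -0.078 to 0.66 for *Hdac4*, -0.47 to 1.39 for *Foxa2* and -0.13 to 0.067 for *Gnb1*. Depth limits *Ihh*, which had 0 to 29 counts per library.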

Other observations

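Among genes listed as partners of ZFP521 and the FOXA factors or as resting-zone genes, 13 of 14 were tested and 0 were called in edgeR, with 4 log2FC values above 0 and 9 below. At an unadjusted p under 0.05 there were 4 of 13 (*Ccnd1*, *Sfrp5*, *Nkx3-2* and *Cdkn1c*), beside 3.47% of all genes tested, and the list was not tested against the rest. DESeq2 with the block called *Ccnd1* and *Sfrp5* higher and *Cdkn1c* and *Apoe* lower (0.879% and 2.39% of genes in that fit), and gave *Nkx3-2* no adjusted p. *Ccnd1*, a cyclin of dividing chondrocytes that PTHrP is known to sustain, had a log2FC of 1.46 ± 0.589 (SE, edgeR adjusted p = 0.9999) and was higher in Gli1+ in 3 of 3 pairs. It was 0.91 without Gli1+ replicate 1. *Cdkn1c*, an inhibitor of the cell cycle that PTHrP is known to hold down, had a log2FC of -2.73 ± 0.949 (SE, edgeR adjusted p = 0.9999) and was lower in Gli1+ in 3 of 3 pairs. Its edgeR value was -1.57 when Gli1- replicate 2 was left out, and -3.52 without Gli1+ replicate 2. *Sfrp5*, a secreted Wnt antagonist, stood at 1.43, 17.4 and 6.46 CPM in Gli1+ replicates 1, 2 and 3, and at 0.414, 1.59 and 1.32 CPM in Gli1- replicates 1, 2 and 3, with a log2FC of 2.92 (edgeR adjusted p = 0.9999) that was 1.82 without Gli1+ replicate 2. *Nkx3-2*, a repressor of hypertrophy downstream of PTHrP, stood at 1.11 to 3.07 CPM in Gli1+ and 0.207 to 0.597 CPM in Gli1-, with a log2FC of 2.07 (edgeR adjusted p = 0.9999). *Apoe*, a lipoprotein gene listed for the resting zone, had a log2FC of -1.68 (edgeR adjusted p = 0.9999), and -1.63 in DESeq2 with the block (adjusted p = 0.00306). The edgeR value was -0.89 with Gli1- replicate 2 left out, and -2.52 without Gli1+ replicate 2. The chondrocyte and fibroblast marker sums were highest in replicate 2 of both populations, and their part in these values was not tested.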
